A study of Mus musculus with 7 samples.

Results

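The 10 genes followed here are among those best known for building the growth plate, as regulators of chondrocyte identity and maturation, and were measured in 7 mice. They are Sox9, Sox5, Sox6, Trps1, Nkx3-2, Mef2c, Mef2d, Foxa2, Foxa3 and Hdac4, chosen by name and not by any measured value, and they make up 10 of the 43346 gene identifiers in the tables. Each symbol matched 1 Ensembl gene with counts in every mouse, and all 10 genes were among the 20239 tested between alleles. The 7 mice were males aged 21 days, each an F1 of C57BL/6J (B6) and CAST/EiJ (CAST), with no treatment and no second genotype. RNA was taken from whole dissected tibial growth plates, proximal and distal, and the labels call the tissue growth plate chondrocyte. Every F1 mouse carries 1 B6 and 1 CAST copy of each autosomal gene in the same nuclei, so the design compares the alleles within a mouse (allele-specific expression). The labels give 1 cross for all 7 mice, so the strain of an allele and the parent that passed it on cannot be told apart.

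Growth plate cartilage lengthens a bone by moving chondrocytes from a resting state through proliferation to hypertrophy. SOX9 commits cells to the chondrocyte fate and drives cartilage matrix genes, with SOX5 and SOX6, which bind DNA through a similar HMG box, as its partners. NKX3-2 and TRPS1 are repressors that act in chondrocytes, NKX3-2 by holding back Runx2. MEF2C and MEF2D, factors with a MADS domain, and FOXA2 and FOXA3, factors with a forkhead domain, promote the hypertrophic program, including the hypertrophic collagen gene Col10a1. HDAC4 is not a DNA-binding factor but a histone deacetylase that restrains MEF2 and RUNX2.

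The total estimated count per mouse ran from 14098019 to 37849667. Between 15.5% and 23.8% of each total fell on the 7S RNA genes Rn7s1, Rn7s2 and Rn7sk, and the normalization factors (TMM) ran from 0.884 to 1.094. Markers of the labelled tissue were abundant. Genes of resting and proliferating chondrocytes summed to between 63443 and 115575 CPM (counts scaled to a common library size), and all 9 had counts in every mouse. Markers of other cells were also present. The summed level was 35103 to 68008 CPM for 6 osteoblast genes, 8067 to 19597 CPM for 7 erythroid genes and 6623 to 13270 CPM for 6 skeletal muscle genes. Most of the osteoblast sum was Col1a1, with a mean of 1261020 counts beside 42666.5 for Bglap, the next highest of that list. Lower sums were found for 5 hypertrophic chondrocyte genes (3610 to 6430 CPM), 5 osteoclast genes (4111 to 6271 CPM), 7 neutrophil genes (1534 to 3070 CPM), 6 B lineage genes (153 to 358 CPM) and 5 endothelial genes (181 to 241 CPM). Every marker of these lists had counts in every mouse. The libraries are therefore of whole tissue, in which fewer cells of a type and less RNA per cell cannot be told apart.

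The related regulators resemble each other most in their DNA-binding parts, and the counts of 1 relative could in principle hold reads of another. The 75-base coding stretches, the length of a read, in which relatives differ least are printed here to show how far apart they are, read from the annotated genome (GRCm38/mm10). Capitals mark the bases that differ between the 2 genes of a pair. The Sox5 and Sox6 stretches lie at chr6:143841215-143841289 and chr7:115489704-115489778, both on the minus strand and in the HMG box, and differ at 10 bases.
Sox5: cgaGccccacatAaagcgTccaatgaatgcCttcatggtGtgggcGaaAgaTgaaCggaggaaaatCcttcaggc
Sox6: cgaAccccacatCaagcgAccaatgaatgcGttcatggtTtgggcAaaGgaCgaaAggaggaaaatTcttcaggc
The closest stretch of Sox9 to Sox5, at chr11:112782878-112782952 on the plus strand, differs from that of Sox5 at chr6:143841224-143841298 by 20 bases.
Sox9: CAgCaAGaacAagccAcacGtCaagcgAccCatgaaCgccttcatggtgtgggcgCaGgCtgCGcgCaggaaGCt
Sox5: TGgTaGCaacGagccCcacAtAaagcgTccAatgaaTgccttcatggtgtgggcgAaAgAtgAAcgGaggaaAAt
Mef2c and Mef2d were the nearest pair, with 5 differing bases between chr13:83592873-83592947 and chr3:88156417-88156491, both on the plus strand.
Mef2c: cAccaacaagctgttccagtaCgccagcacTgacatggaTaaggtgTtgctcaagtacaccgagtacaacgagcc
Mef2d: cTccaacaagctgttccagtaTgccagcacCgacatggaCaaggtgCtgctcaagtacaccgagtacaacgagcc
Foxa2 and Foxa3 differed at 9 bases between chr2:148044289-148044363 and chr7:19014715-19014789, both on the minus strand.
Foxa2: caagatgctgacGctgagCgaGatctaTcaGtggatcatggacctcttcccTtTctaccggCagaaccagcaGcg
Foxa3: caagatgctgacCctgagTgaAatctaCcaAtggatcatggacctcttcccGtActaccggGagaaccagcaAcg
Each of these pairs, and Sox9 with Sox6 at 24 bases, differed by more than the 3 mismatches allowed when the reads were aligned, and no exact 75-base stretch was shared between any of the regulators. Sequence was shared with other genes. Of the 75-base stretches in its annotated transcripts, Hdac4 shared 21.2% with 8 other genes, among them Gm26720 on the opposite strand, Sox5 shared 8.61% with the antisense gene Sox5os1, and Mef2d shared 7.29% with the antisense gene 1700113A16Rik. All 3388 shared Hdac4 stretches were shared with Gm26720. Protein-coding transcripts held 62 of these 3388, 0 of the 1259 shared stretches of Sox5 and 457 of the 457 of Mef2d, the last outside coding sequence. Those 3 regulators had totals more than 0.0001 away from a whole number in all 7 mice, whereas the other 7 regulators had totals within 0.0001 of a whole number in every mouse.

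Mef2d, Sox9 and Trps1 had the highest levels of the 10 regulators with the length used here. Level was measured as TMM-scaled CPM per kb of exon, using the combined length of all annotated exons of a gene. Mef2d stood at 12.4 ± 1.90 (SD, n = 7), Sox9 at 11.3 ± 1.52 and Trps1 at 9.58 ± 1.05, which are percentiles 86.2, 84.8 and 81.9 of the tested protein-coding genes. Foxa3 followed at 4.98 ± 1.37, Mef2c at 4.69 ± 0.409, Foxa2 at 3.12 ± 0.557, Nkx3-2 at 2.95 ± 0.771, Sox6 at 2.83 ± 0.441, Hdac4 at 2.73 ± 0.279 and Sox5 at 1.85 ± 0.235. Of the 9 pairs of neighbours in this order, 4 had an unadjusted p below 0.05 (two-sided exact permutation of signs, for which p = 0.0156 is the smallest with 7 mice). The order was set by the same values, and these p were not adjusted over the 9 pairs. Sox9 lay above Trps1 in 6 of 7 mice (p = 0.0469, exact test), and Trps1 above Foxa3, Mef2c above Foxa2 and Hdac4 above Sox5 in 7 of 7 mice (p = 0.0156 each, exact test). Mef2d and Sox9 could not be ordered (p = 0.203, exact test), nor could Foxa3 and Mef2c (p = 0.875, exact test), or the 4 genes from Foxa2 down to Hdac4 (p from 0.578 to 0.844, exact tests). The order depended on the length used. With the mean length of a gene's transcripts, Sox9 took place 6 and Mef2c place 2, and with the longest transcript Sox9 took place 4. Trps1 stood above Sox9 with both of these lengths, at places 3 and 2. Mef2d came first and Trps1 was among the first 3 with all 3 lengths.

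**Figure D1:**
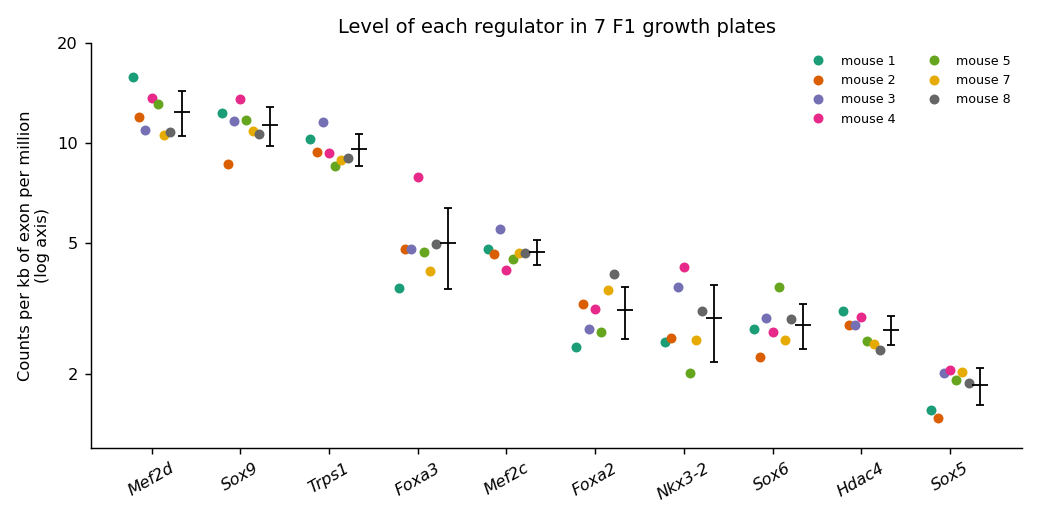
Level of each regulator in each mouse, in TMM-scaled CPM per kb of exon on a log axis, with colours for mice and bars for the mean and SD over 7 mice. Mef2d, Sox9 and Trps1 lie above the other 7 genes in every mouse, and Foxa3 in mouse 4 lies apart from Foxa3 in the other mice.

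Within families, Sox9 stood 6.12-fold above Sox5 and 4.02-fold above Sox6 per kb of exon, and in all 7 mice (p = 0.0156 each, exact sign-flip permutation test). These ratios are only as firm as the transcript lengths. With the mean transcript length, Sox9 was 1.10-fold Sox5 and 0.976-fold Sox6, since Sox5 and Sox6 have 14 and 16 annotated transcripts and Sox9 has 1. The longest transcript gave 3.08-fold and 2.35-fold. Mef2d was 2.63-fold above Mef2c with exon length, 1.12-fold with the mean transcript and 1.16-fold with the longest. Foxa3 was 1.57-fold above Foxa2 with exon length and 1.41-fold with the longest transcript, but 0.969-fold with the mean transcript.

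Between the alleles, 7 of the 10 regulators showed no difference that passed the test. At the FDR threshold of the study, 0.20, 3 of the 10 regulators were called (edgeR likelihood-ratio test), which is 30% beside 34.5% of all tested genes. Foxa2 and Sox9 were higher from the CAST allele, beside 16.0% of tested genes called in that direction, and Sox5 was higher from the B6 allele, beside 18.5%. The tested genes include those of the X chromosome, such as Phex, with 1865 B6 and 1.87 CAST counts on average in these males. All 10 regulators are autosomal, and the part of X genes in these shares was not tested. A share of 3 in 10 is near the background and does not set the regulators apart. Foxa2 and Sox5 had the same direction in all 7 mice, as had 4977 of all tested genes (24.6%). The same direction in every mouse therefore does not set the regulators apart either. Of the 10, 9 had a smaller absolute log2 fold change than the median of 0.22 over all tested genes. That median covers genes of the X chromosome and genes with few counts, such as Mef2b with 1.53 at 4.62 counts. A median over autosomal genes of like depth was not taken.

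**Figure D2:**
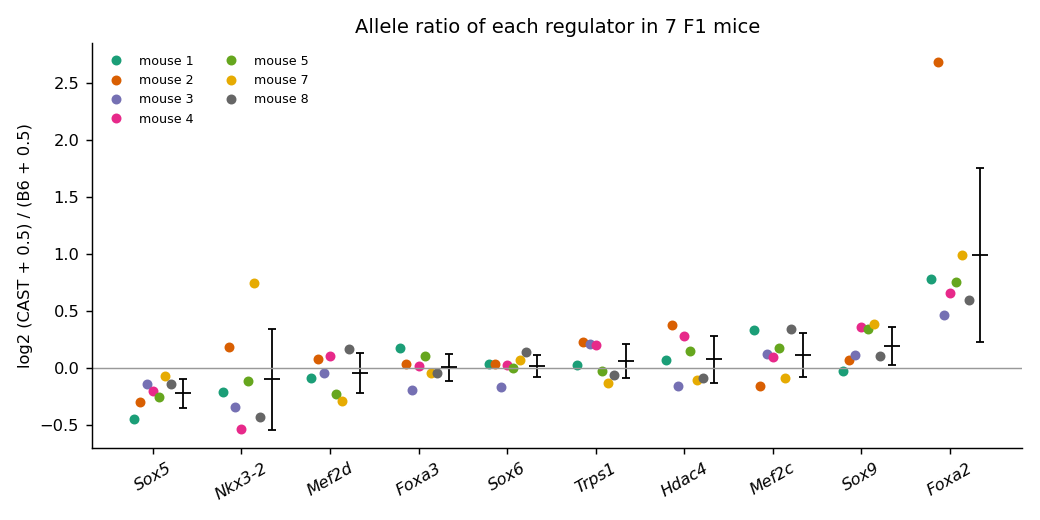
Log2 ratio of CAST to B6 counts, each with 0.5 added, for every regulator and mouse, ordered by the mean, with bars for the mean and SD over 7 mice. Foxa2 lies above 0 and Sox5 below 0 in all 7 mice, and the ratio of Foxa2 in mouse 2, 2.69, is far above the others.

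Foxa2 (ENSMUSG00000037025, chr2:148042877-148046969, minus strand), a driver of hypertrophic maturation, had the largest difference of the 10. From the B6 allele, the estimated counts in mice 1, 2, 3, 4, 5, 7 and 8 were 70.6, 29.3, 78.2, 53.7, 92.7, 41.0 and 87.4. From the CAST allele they were 121, 192, 108, 85.3, 156, 82.0 and 133. CAST exceeded B6 in every mouse, while the B6 values and the CAST values overlapped across mice, whose libraries differ in depth. The CAST allele gave 65.6% ± 9.71 (SD, n = 7) of the counts, and the log2 fold change was 0.96 (SE 0.213, FDR 6.1e-05, edgeR likelihood-ratio test). The fits with the mouse as a block, which pairs both alleles of an animal, gave larger FDRs. These were 0.00129 in the likelihood-ratio test and 0.0353 in the quasi-likelihood test of edgeR. Over single mice the log2 ratio averaged 0.99 ± 0.767 (p = 0.0156, exact sign-flip permutation test, the smallest that 7 mice can give, and 0.0635 when adjusted over all tested genes). Mouse 2 set much of this size. Its CAST share was 86.7% against 58.0% to 66.7% in the other 6 mice, and without it the fold change was 0.72 (FDR 0.000386, edgeR likelihood-ratio test). The total Foxa2 level of mouse 2 was not unusual, at 7.73 CPM in a range of 5.74 to 9.51 CPM. Of all tested genes, 14.9% had a larger absolute fold change than Foxa2.

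Its paralog Foxa3 showed no difference that passed the test. The CAST share of Foxa3 was 50.1% ± 2.07 (SD, n = 7) and ran from 46.6% to 53.1%, with a log2 fold change of 0.02 (SE 0.177, FDR 1.00, edgeR likelihood-ratio test). At 262 ± 76.9 counts per mouse, Foxa3 was measured about as deeply as Foxa2 at 190.0 ± 45.6. The log2 ratio of Foxa3 was below that of Foxa2 in 7 of 7 mice, by a mean of -0.98 ± 0.751 (p = 0.0156, exact sign-flip permutation test, 0.0391 adjusted over 5 such comparisons within families, which were chosen after the values had been seen). The third family member, Foxa1, had 0 counts in all 7 mice, where a count of 0 allows at most 3 counts, or 0.0793 to 0.213 CPM, by counting error alone.

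Sox9 (ENSMUSG00000000567, chr11:112782224-112787760, plus strand), the gene that specifies the chondrocyte, was slightly higher from the CAST allele. Its B6 counts were 860, 500, 661, 456, 838, 283 and 491 in mice 1, 2, 3, 4, 5, 7 and 8, and its CAST counts were 841, 525, 715, 586, 1063, 369 and 527. CAST was higher in 6 of 7 mice, and mouse 1 was the exception. The CAST share was 53.3% ± 2.89 (SD, n = 7), with a log2 fold change of 0.21 (SE 0.113, FDR 0.187, edgeR likelihood-ratio test) and p = 0.0312 over mice (exact sign-flip permutation test, 0.101 adjusted over all tested genes). Mice 4, 5 and 7 had shares of 55.9% to 56.6% and the other 4 mice 49.5% to 51.9%. The call was lost without any 1 of mice 3, 4, 5, 7 and 8, at an FDR of 0.224 to 0.356 (edgeR likelihood-ratio test). With the mouse as a block and all 7 mice, the FDR was 0.00558 in the likelihood-ratio test and 0.0479 in the quasi-likelihood test of edgeR.

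Sox5 (ENSMUSG00000041540, chr6:143828425-144781977, minus strand) was called higher from the B6 allele. B6 counts were 435, 336, 436, 295, 590, 216 and 329 in the same order of mice, and CAST counts were 317, 272, 394, 255, 495, 206 and 299. B6 was higher in every mouse, by the most in mouse 1 and by the least in mouse 7. The CAST share was 46.1% ± 2.19 (SD, n = 7), with a log2 fold change of -0.20 (SE 0.111, FDR 0.197, edgeR likelihood-ratio test) and p = 0.0156 over mice (exact sign-flip permutation test, 0.0635 adjusted over all tested genes). The call lay just inside the threshold and was lost without any 1 of the 7 mice, at an FDR of 0.212 to 0.358 (edgeR likelihood-ratio test without the block). The fit that pairs both alleles of a mouse gave an FDR of 0.000152 in the likelihood-ratio test and 0.0152 in the quasi-likelihood test of edgeR. With each mouse left out, the mean log2 ratio within mice ran from -0.25 to -0.19 (p = 0.0312 each, unadjusted, exact sign-flip permutation test). Sox5os1, the antisense gene that shares sequence with Sox5, was assigned at most 12.3 counts in any mouse beside 697 ± 216 for Sox5, with averages of 3.43 from B6 and 3.55 from CAST. The part of the shared sequence in the Sox5 difference was not tested.

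Sox6, which acts with Sox5, showed no difference that passed the test. Its CAST share was 50.3% ± 1.66 (SD, n = 7), the narrowest spread of the 10 regulators, with a log2 fold change of 0.03 (SE 0.118, FDR 0.962, edgeR likelihood-ratio test). Sox9 and Sox5 were thus called in opposite directions, and Sox6 in neither. The log2 ratio of Sox9 lay above that of Sox5 in 7 of 7 mice, by 0.42 ± 0.139 (p = 0.0156, exact sign-flip permutation test, 0.0391 adjusted over the 5 family comparisons). Sox6 lay above Sox5 in 6 of 7 mice, by 0.24 ± 0.160 (adjusted p = 0.0521, exact test), and Sox9 above Sox6 in 5 of 7 mice, by 0.17 ± 0.188 (adjusted p = 0.137, exact test).

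**Figure D3:**
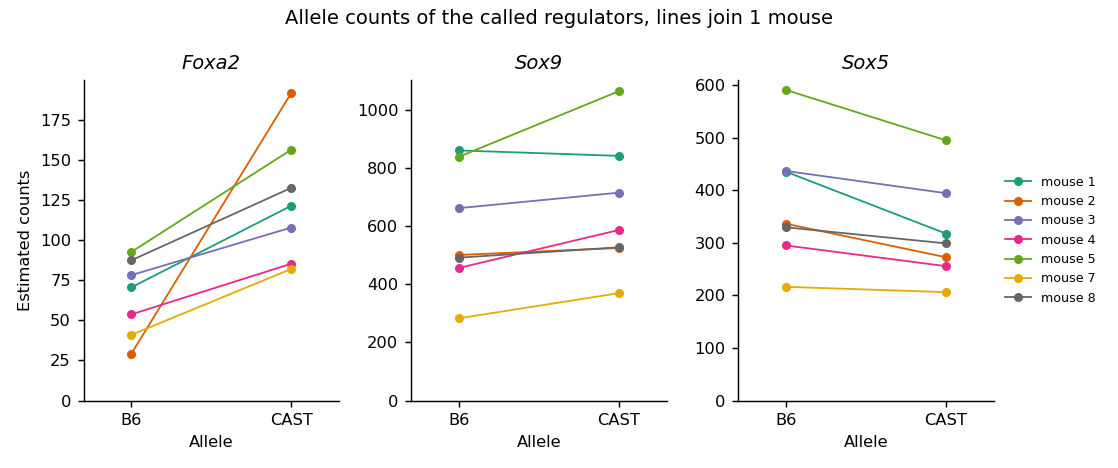
Estimated counts of Foxa2, Sox9 and Sox5 from the B6 and the CAST allele, with a line joining both alleles of each mouse and the vertical axis starting at 0. Every Foxa2 line rises and every Sox5 line falls toward CAST, and for Sox9 the line of mouse 1 falls while the other 6 rise.

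Neither of the MEF2 factors nor their repressor HDAC4 was called without a block. Mef2c had B6 counts of 939 ± 305 and CAST counts of 1031 ± 374 (SD, n = 7), with CAST higher in 5 of 7 mice and a log2 fold change of 0.13 (SE 0.0972, FDR 0.383, edgeR likelihood-ratio test). With the mouse as a block, which pairs both alleles of an animal, Mef2c was called at an FDR of 0.150, as were 45.3% of tested genes (edgeR likelihood-ratio test with block), so that 4 of 10 regulators were then called. The quasi-likelihood test with the same block did not call Mef2c (FDR 0.219, edgeR). The exact sign-flip permutation test over mice gave p = 0.172 for Mef2c. Mef2d had a log2 fold change of -0.03 (SE 0.121, FDR 0.970, edgeR likelihood-ratio test), with B6 higher in 4 of 7 mice. The ratios of Mef2d and Mef2c differed by -0.16 ± 0.232 (adjusted p = 0.156, exact test). Hdac4 had a CAST share of 51.3% ± 3.53, from 47.2% in mouse 3 to 56.4% in mouse 2, and a log2 fold change of 0.10 (SE 0.104, FDR 0.604, edgeR likelihood-ratio test).

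The repressors Trps1 and Nkx3-2 did not pass the test either. Trps1 was the regulator with the most counts, 1718 to 4604 per mouse, and its CAST share ran from 47.6% to 53.9% with a log2 fold change of 0.09 (SE 0.103, FDR 0.661, edgeR likelihood-ratio test). Its ratio was above 0 in mice 1, 2, 3 and 4 and below 0 in mice 5, 7 and 8. Nkx3-2 had the fewest counts, 63 to 181 per mouse, and its CAST share spread from 40.8% in mouse 4 to 62.8% in mouse 7, the shallowest library. Its log2 fold change of -0.14 had an SE of 0.213 (FDR 0.756, edgeR likelihood-ratio test), so a difference of the size seen for Sox9 or Sox5 was not detectable in Nkx3-2 at this depth.

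The spread of the total level between mice differed from regulator to regulator. The coefficient of variation of CPM ran from 8.72% for Mef2c to 27.4% for Foxa3, beside a median of 14.1% over 15623 tested protein-coding genes, and 5 regulators lay above that median. Foxa3 and Nkx3-2 varied most. Foxa3 ran from 7.44 CPM in mouse 1 to 16.1 CPM in mouse 4, and Nkx3-2 from 3.47 CPM in mouse 5 to 7.27 CPM in mouse 4. Mouse 4 also had the highest sums of both chondrocyte marker lists, at 115575 and 6430 CPM. Mouse 2 had the lowest Sox9, Sox5 and Sox6 levels, at 35.9, 21.3 and 33.6 CPM, and the highest osteoblast and osteoclast marker sums, at 68008 and 6271 CPM. Its sums of the resting and proliferating and the hypertrophic chondrocyte lists, 88136 and 5413 CPM, were not low. The medians over the 7 mice were 73234 and 5065 CPM. The part of the cell makeup in these levels was not tested.

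**Figure D4:**
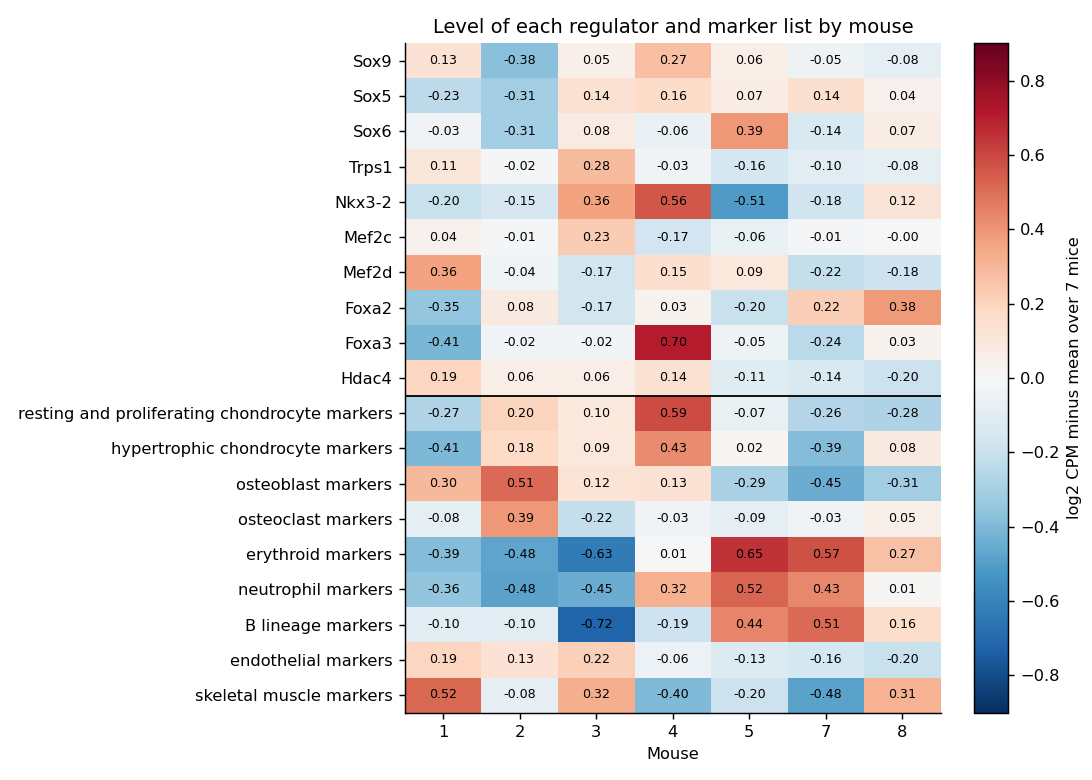
Log2 CPM of each regulator, and of the summed CPM of each marker list below the line, minus its mean over 7 mice, with 1 column for each mouse. Mouse 4 is high for Foxa3, Nkx3-2 and both chondrocyte lists, and mouse 2 is low for Sox9, Sox5 and Sox6 but above the mean for both chondrocyte lists.

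Across the 7 mice, no pair of regulators was correlated after adjustment. Of 45 pairs, 0 passed an adjusted p of 0.05 with Pearson's r (lowest 0.908, exact permutation test) or Spearman's rho (lowest 0.616), and 1 had an unadjusted p below 0.05. That pair was Trps1 and Mef2c, with r = 0.79 (p = 0.0488, exact permutation test) and rho = 0.61, and r was -0.21 after the 2 mice with the most extreme Trps1 had been left out. Of 90 relations between a regulator and a marker list, 0 passed after adjustment (lowest 0.116 for r and 0.25 for rho) and 7 had an unadjusted p below 0.05 for r. Foxa3 had r = 0.88 with the hypertrophic chondrocyte markers (p = 0.00298, exact permutation test, rho = 0.89, and r = 0.94 without the 2 outer mice). Trps1 had r = -0.85 with the erythroid markers (p = 0.00516, exact permutation test, rho = -0.96, and r = -0.79 without the 2 outer mice), r = -0.91 with the B lineage markers and r = 0.85 with the endothelial markers. Each of these 4 relations had an adjusted p of 0.116 and is therefore not a call. Foxa3 also had r = 0.86 with the resting and proliferating chondrocyte markers (p = 0.0236, 0.398 adjusted, exact permutation test). There rho was 0.46, and r was 0.48 without the 2 outer mice. All values of a mouse come from 1 library and share its depth and cell makeup.

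The partners of the regulators were read in the same fit, as 4 lists of 72 genes. Of 70 tested genes, 13 were called (edgeR likelihood-ratio test at an FDR of 0.20), which is 18.6% beside 34.5% of all tested genes, with 6 higher from CAST and 7 from B6. The same direction in all 7 mice was found for 6 of the 13, Sox4, Sox10, Sp7, Lef1, Hdac7 and Hdac3. That was a condition for describing these genes below, so it adds no evidence for them. The 70 include 3 genes, Zfp219, Hif1a and Scx, with equal counts from both alleles in every mouse, which hold no information on an allele difference. With the mouse as a block, 29 were called, beside 45.3% of all tested genes, and without mouse 1 the test without the block called 7. Among 17 SOX9 cofactors and other SOX genes, 4 were called and the median log2 fold change was 0.04 beside 0.01 over all tested genes. Sox4, a SOX factor of progenitor cells, was higher from CAST in 7 of 7 mice, at 675 ± 201 CAST and 474 ± 143 B6 counts, with a log2 fold change of 0.51 (SE 0.110, FDR 3.18e-05, edgeR likelihood-ratio test), though its totals were more than 0.0001 away from a whole number in every mouse. Sox10, best known in neural crest, was higher from B6 in 7 of 7 mice, with a log2 fold change of -0.64 (SE 0.322, FDR 0.153, edgeR likelihood-ratio test) at only 44.7 counts per mouse. Wwp2, whose intron carries a microRNA that SOX9 controls, had the second highest level of this list, 29.4, and was not called (log2 fold change -0.0061, SE 0.109, FDR 1.00, edgeR likelihood-ratio test).

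Among 21 tested factors of hypertrophy and ossification, 6 were called, 2 from CAST and 4 from B6, with a median of 0.02, and 13 with the block, beside 34.5% and 45.3% of all tested genes. That median is the value of Hif1a, whose counts were equal from both alleles. Sp7, the osteoblast and hypertrophic factor osterix, was higher from B6 in every mouse, with 1670 ± 560 B6 and 1386 ± 455 CAST counts and a log2 fold change of -0.24 (SE 0.110, FDR 0.0965, edgeR likelihood-ratio test). Lef1, a mediator of WNT signals, was higher from CAST in every mouse, with a log2 fold change of 0.28 (SE 0.126, FDR 0.0997, edgeR likelihood-ratio test). Its totals were more than 0.0001 away from a whole number in 6 of 7 mice. Runx2, the target of repression by NKX3-2 and HDAC4, had 825 ± 251 CAST counts of a total of 1724 and was not called (FDR 0.463, edgeR likelihood-ratio test), but with the mouse as a block it was called higher from B6 (FDR 0.0419). B6 was higher in 6 of 7 mice for Runx2 (p = 0.0312, exact sign-flip permutation test). The totals of Runx2 were more than 0.0001 away from a whole number in all 7 mice. Among 20 partners of HDAC4 and MEF2, 3 were called, with a median of -0.03, and 6 with the block, beside the same 34.5% and 45.3%. Hdac7, a class II deacetylase like HDAC4, was higher from B6 in every mouse, with a log2 fold change of -0.26 (SE 0.102, FDR 0.0433, edgeR likelihood-ratio test), as was Hdac3, the class I deacetylase found in complexes with HDAC4, at -0.17 (SE 0.0878, FDR 0.176, edgeR likelihood-ratio test). Mef2b was called at a mean of 4.62 counts per mouse. Of 12 tested factors of early chondrogenesis and limb patterning, 0 were called by edgeR's likelihood-ratio test, its quasi-likelihood test or DESeq2, 0 had an unadjusted p below 0.05 in the likelihood-ratio test, and 3 were called with the block, again beside 34.5% and 45.3%.

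**Figure D5:**
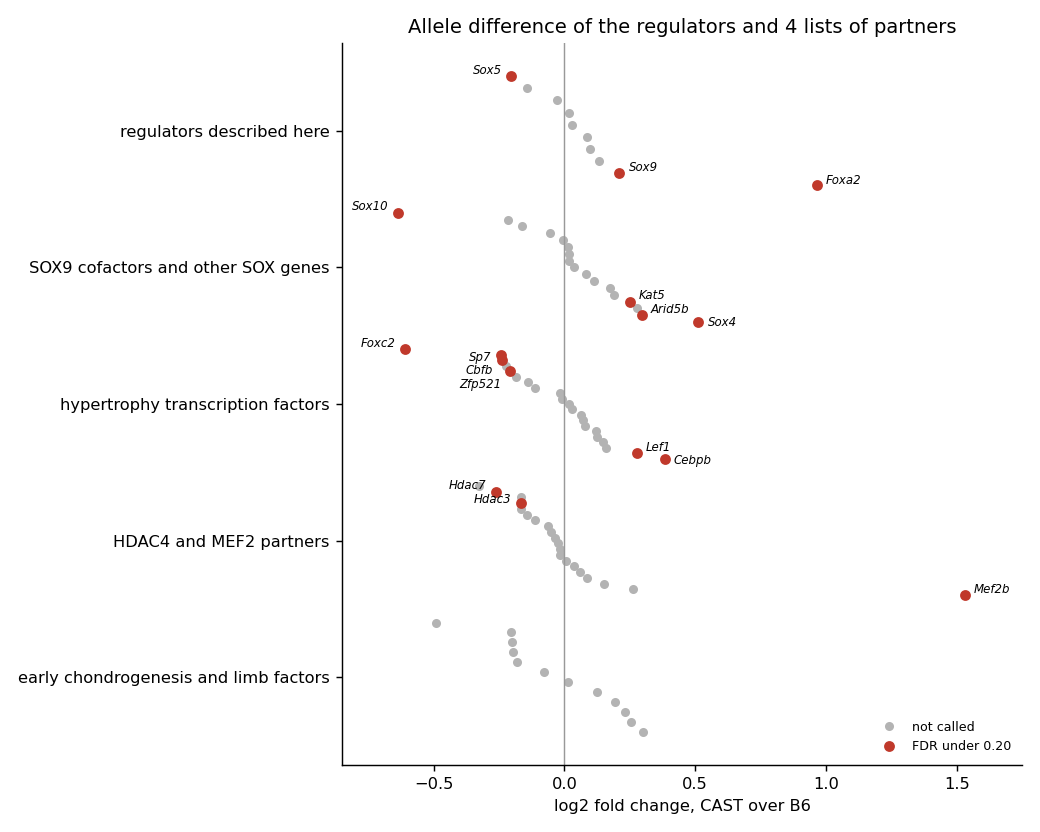
Log2 fold change of CAST over B6 for each tested gene of the regulators and of 4 lists of partners, with genes called at an FDR under 0.20 in red and named. Most genes lie close to 0, and Foxa2 stands out among the regulators at 0.96.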

How the data were processed

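RNA-seq was made from tibial growth plates of 7 male F1 mice, with stranded, ribosomal RNA depleted libraries and paired 75-base reads. The authors aligned reads with Bowtie, allowing 3 mismatches, to a joint transcriptome of both strains built on mm10, and deposited estimated counts per gene and allele from EMASE. Bowtie and SAMtools versions and use of strand are not given in the sources used here. Count totals exceed the reads per sample that the labels state, and whether 1 count is a read or a pair is not given, so only relative depth is used.

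Counts were rounded and alleles compared with edgeR 4.0.16 in R 4.3.3 (TMM, likelihood-ratio test, Benjamini-Hochberg over all tested genes, FDR under 0.20, after the study's methods). A gene was tested if each mouse had some count for it from either allele. Alternatives were the mouse as block, DESeq2 1.42.0, the quasi-likelihood test of edgeR, other filters and library sizes, and each mouse left out. Both alleles come from 1 animal, and deviations from the allele means correlated more within a mouse than between mice on average (means 0.235 and -0.0393 over 13537 genes). The lowest correlation within a mouse was near 0, at 0.0105. Single genes were tested over mice by exact permutation of the signs of log2 ratios (two-sided, pseudocount 0.5, scipy 1.17.1). Exon lengths came from GENCODE M21 (GRCm38/mm10), which held 98.0% of the 43346 identifiers. No 2 libraries agreed within sampling noise (21 pairs, with a chi-square of 14.2 to 89.1 times its degrees of freedom). Library sizes and precision are set by 14098019 to 37849667 counts per mouse.

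All 10 regulators are named. Other named genes overlap one of them, were called in a list with 1 direction in all 7 mice (12 at most), or are the 5 most like Sox9 with at least 100 mean counts. Wwp2, Runx2, Mef2b, Foxa1, Phex, Zfp219, Hif1a, Scx, Col1a1 and Bglap were named after their values had been seen. The genes and lists were chosen with earlier results of these data known.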

Additional observations from a re-analysis of the deposited data

Results flagged for a closer look

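For each of the 10 regulators, the log2 allele ratio and the log2 level were examined in the 7 mice for a value far from the others (Dixon's test at 95%). Of 20 sets of values, 2 held such a value, where chance gives about 1. The log2 CAST over B6 ratio of Foxa2 in mouse 2 was 2.69, and the other 6 mice ran from 0.46 to 0.99. It rests on 29.3 B6 and 191.7 CAST counts, and the mean ratio was 0.99 with mouse 2 and 0.71 without it. The log2 CPM of Foxa3 in mouse 4 was 4.01, and the other 6 mice ran from 2.90 to 3.34. The 9 other regulators had no such level in any mouse.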

How the results depend on the processing

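Foxa2 remained called under all alternatives run, with a log2 fold change of 0.72 to 1.05 when each mouse was left out. The calls of Sox9 and Sox5 did not, though both held with the replicate block in either test. With that block, the FDR of Sox5 was below that of Foxa2, at 0.000152 against 0.00129 in the likelihood-ratio test of edgeR. In its quasi-likelihood test they were 0.0152 and 0.0353. Of the 10 regulators 3 were called, against 1 (Foxa2) with DESeq2, with no filter and at an FDR under 0.05, 4 with the replicate block in the likelihood-ratio test, 3 with the replicate block in the quasi-likelihood test (without Mef2c), and 1 to 2 when each mouse was left out. Of the partner genes 13 were called, against 29 and 26 with the replicate block in the likelihood-ratio and quasi-likelihood tests, 5 at an FDR under 0.05, and 7 to 16 when each mouse was left out (7 without mouse 1). Sox9 was lost with DESeq2 (FDR 0.203), a library size shared by both alleles (0.233), autosomal genes alone (0.219) and no filter (0.217), and Sox5 with DESeq2 (0.210), at least 10 counts per mouse (0.205), no filter (0.258) and counts not rounded (0.247). The cause of these losses was not tested. No called regulator changed sign. Of those not called, the log2 fold change changed sign for Mef2d (-0.03) without mouse 5 or 7 (0.0096 and 0.0077) and for Foxa3 (0.02) without mouse 1 (-0.0031), as did the mean log2 ratio for Sox6 without mouse 8 (-0.0022) and for Foxa3 without mouse 1 or 5 (-0.02 and -0.01). The number of neighbours in the order of levels with an unadjusted p below 0.05 (exact sign-flip permutation test) was 4. It was 3 to 6 under other scalings and lengths, of which the longest transcript was added after the data had been seen. Depth limits Nkx3-2, Foxa2 and Foxa3, with at most 181, 249 and 375 counts in a mouse.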

Other observations

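The genes whose level followed Sox9 most closely over the 7 mice were Mbd6 (r = 0.95), Usp42 (r = 0.95), Fbxl2 (r = 0.94), Srrm2 (r = 0.93) and Dhx57 (r = 0.93), of 11708 genes with at least 100 counts on average. These are descriptions over 7 libraries that share depth and cell makeup, and no p is given. Among the same genes Sox5 took place 473 (r = 0.57), Mef2d place 763, Sox6 place 833, and the cartilage matrix genes Acan and Col2a1 places 1257 and 2923. Foxa2 took place 9991 (r = -0.41).

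Noncoding genes inside the regulators had few counts, and strand use in counting is not given. Without strand, reads of a gene and of its antisense partner cannot be told apart. Sox5it, a transcript inside an intron of Sox5, had 2 to 19 counts per mouse, on average 6.86 from B6 and 1.14 from CAST (log2 fold change -2.64, FDR 3.1e-06, edgeR likelihood-ratio test). 1700113A16Rik, antisense to Mef2d, had 13.6 B6 and 1.22 CAST counts on average (log2 fold change -3.36, FDR 2.21e-08, edgeR likelihood-ratio test), while Mef2d had 1026 B6 and 987 CAST counts. Gm37048, on the opposite strand of Hdac4, had 86.8 ± 48.3 counts and no call (FDR 0.690, edgeR likelihood-ratio test), and Sox6os, antisense to Sox6, had 7.57 ± 3.26.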
